A study of Mus musculus with 9 samples.

Results

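Mouse bone marrow LSK cells (Lin-, Sca-1+, c-Kit+), among which are the hematopoietic stem cells and early progenitors, were cultured for 3 days on OP9 feeder layers, and the non-adherent cells were profiled on 9 oligonucleotide arrays. All cells came from wild-type C57/Bl6 mice, whose age the labels do not give. The groups were OP9-DL1+CompoundE, a feeder that expresses the Notch ligand Delta-like 1 with 1 µM of the γ-secretase inhibitor Compound E (3 arrays), OP9-DL1 with no Compound E named (3 arrays), and OP9-GFP, the control feeder without the ligand (3 arrays). Described here are 43 of the 18193 measured genes, those that were low on the ligand feeder and still low when the inhibitor was present. The genes were chosen by their group means: the OP9-DL1 mean had to lie at least 1 below the OP9-GFP mean on the log2 scale, the mean with Compound E at least 0.5 below it, and the OP9-GFP mean above 5. A further 3 genes met these conditions (C1qb, C1qc and Il7r) and were left out by name.

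Notch receptors are cut by γ-secretase after they bind a ligand such as Delta-like 1, and the freed intracellular part joins the DNA-binding protein RBPJ in the nucleus to switch on target genes. In early blood progenitors this signal favours the T cell fate and can hold back the B cell fate and some myeloid fates. Blocking γ-secretase with Compound E keeps the receptor from being freed, and the same enzyme also cuts other membrane proteins.

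The values are log2 expression values, 1 per probe set and array, with array medians from 4.78 to 4.94. Each gene was represented by its brightest probe set, and the array's probe sets against bacterial genes, a control with no target in mouse RNA, read up to 3.64, the level called background here. Whether replicate arrays stand for separate cultures or mice is not stated, so the p-values here reflect array-to-array spread alone, which may be technical. In this bulk RNA, fewer cells of a type and less RNA per cell cannot be told apart. The ligand and the feeder line that carries it cannot be told apart either, and a culture with Compound E on OP9-GFP was not analysed here. Of 13 listed Notch target genes, 0 were higher and 2, Nrarp and Myc, lower with Compound E than on OP9-GFP (limma adjusted p under 0.05; of all genes 12.1% were higher and 10.6% lower), and 8 were higher and 1 lower on OP9-DL1 (15.9% and 16.7% of all genes). Cxcl12, a chemokine of stromal cells, stood at 12.08 with Compound E, 12.56 on OP9-DL1 and 12.21 on OP9-GFP. Identical values on arrays of 1 group occurred in 3976 genes, 7 of the 43 among them (Ctnnd2, Ptgds, C3ar1, Slc36a2, Cdsn, Irf4 and Fcrls), which makes their spread appear small.

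Most genes that were lower on OP9-DL1 did not stay low with the inhibitor. Among 10601 genes above 5 on OP9-GFP, 480 lay at least 1 lower on OP9-DL1, and 361 of these had a Compound E mean at or above the OP9-GFP mean. The 43 genes made up 8.96% of the 480. Their difference between Compound E and OP9-GFP ran from -2.50 to -0.51, with a median of -0.80, and that between OP9-DL1 and OP9-GFP from -4.49 to -1.04, with a median of -1.78. These 2 differences chose the genes and share the OP9-GFP arrays, so they are a description. All 43 had limma adjusted p under 0.05 and no overlap between arrays in both, which the choice largely fixes; of all genes, 10.6% were called lower with Compound E and 16.7% lower on OP9-DL1 than on OP9-GFP, and 15% and 23% lay lower without overlap. Just inside the Compound E limit stood Prune2 (-0.51), Pcbd1 (-0.52), Fcrls (-0.53) and Tctex1d1 (-0.54), and just outside it Flt3 (-0.46), Dtx4 (-0.42), Klrb1f (-0.42) and Cd28 (-0.41). At the OP9-DL1 limit the nearest genes inside were Pdgfc (-1.04), BC064078 (-1.08), Cav1 (-1.10) and Tbc1d16 (-1.13), and outside Lyplal1 (-0.97), Tmem229b (-0.97), Nrxn2 (-0.94) and Gdf3 (-0.92).

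**Figure D1:**
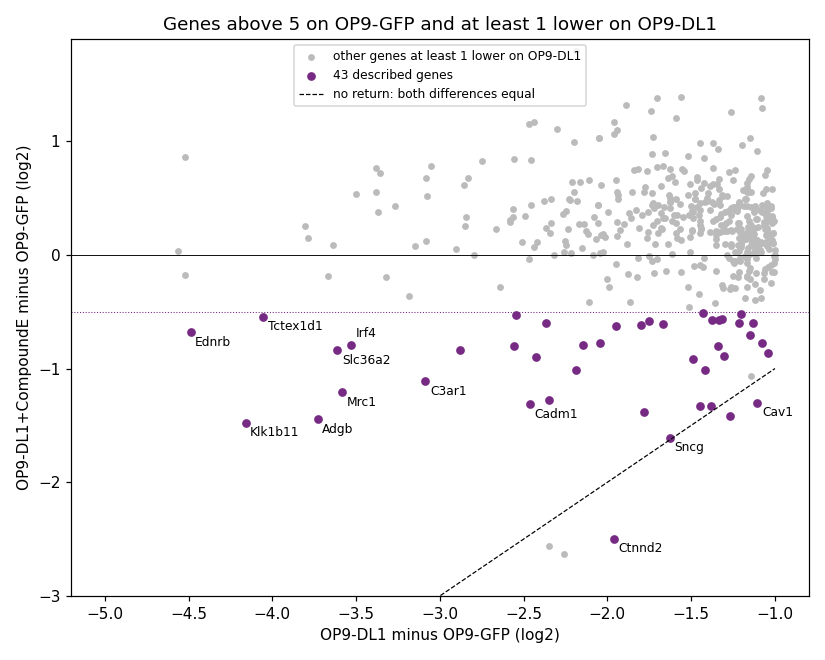
For genes above 5 on OP9-GFP and at least 1 lower on OP9-DL1, the difference OP9-DL1+CompoundE minus OP9-GFP (vertical, log2) is plotted against OP9-DL1 minus OP9-GFP (horizontal, log2). Each point is a gene, the 43 described genes are purple and lie below the dotted line at -0.5, the 3 grey points below that line are the genes left out by name, and on the dashed line both differences are equal; Ctnnd2, Insyn2a and Cav1 lie below it.

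On the remaining contrast, Compound E against OP9-DL1 alone, the rule set no limit of its own. The difference is, however, that between the 2 values that chose the genes, and it comes from the same arrays. Choosing genes for a low OP9-DL1 mean favours a positive difference here, so the counts below do not show an excess over all genes. Of the 480 genes at least 1 lower on OP9-DL1, 361 had a Compound E mean at or above that on OP9-GFP. By limma 34 of the 43 genes were higher with Compound E (25.1% of all genes were), 1 was lower (21.6% of all genes) and 8 did not pass. The median difference was 1.06, against 0.08 over all genes (0.54 for the same 43 genes with log2 of the linear value plus 32, a scale on which 20 genes met the rule), and the arrays of 33 genes did not overlap (29.3% of all genes lay higher without overlap). The share of the OP9-DL1 difference that was still present with Compound E, the ratio of the 2 log2 differences to OP9-GFP, ran from 13.4% for Tctex1d1 to 127.2% for Ctnnd2, with a median of 43%. It was above 90% for 6 genes, from 30% to 90% for 30 and below 30% for 7. A small set was thus about as low with the inhibitor as without it, and a larger set lay between its OP9-DL1 and OP9-GFP levels.

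**Figure D2:**
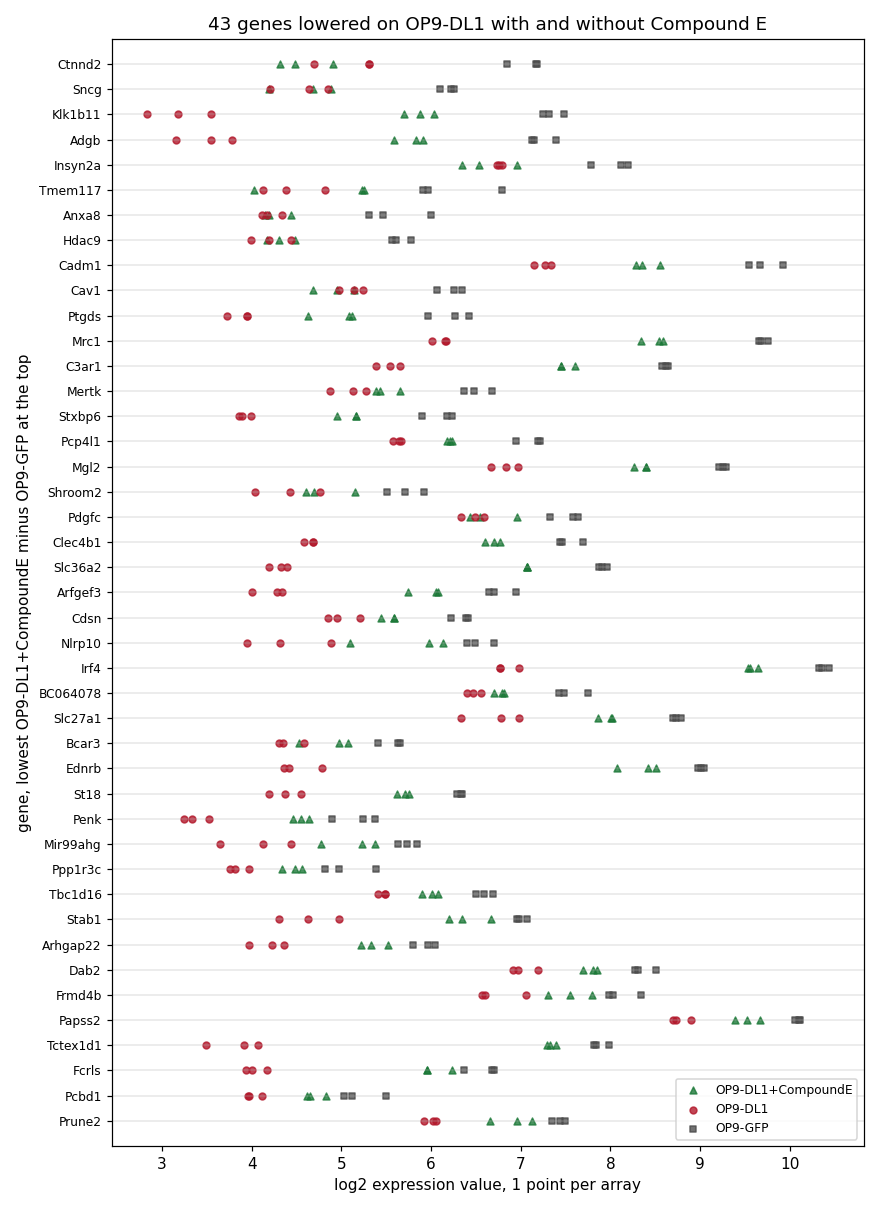
Log2 expression (horizontal) of each of the 43 genes on every array, with triangles for OP9-DL1+CompoundE, circles for OP9-DL1 and squares for OP9-GFP, ordered from the lowest OP9-DL1+CompoundE minus OP9-GFP at the top. No triangle or circle reaches a square in any row; triangles and circles mix for 10 genes, among them Sncg, Anxa8 and Hdac9, and stand apart for the other 33.

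The genes not called higher with Compound E than on OP9-DL1 were led by Ctnnd2. It encodes δ-catenin, a cadherin-binding armadillo protein known mainly from neurons. Ctnnd2 read 4.48, 4.32 and 4.91 with Compound E, 4.69, 5.31 and 5.31 on OP9-DL1 and 6.84, 7.17 and 7.18 on OP9-GFP. Every array with the ligand feeder lay more than 1 log2 unit under every OP9-GFP array. The Compound E mean was 5.64-fold below that on OP9-GFP, and it fell further than on OP9-DL1 alone by 0.53 ± 0.19 (SE, limma adjusted p = 0.0283). The arrays of these 2 groups overlapped, and the values of OP9-DL1 replicates 2 and 3 were identical. The call was lost without OP9-DL1 replicate 2 (adjusted p = 0.123) or 3 (0.119) and without Compound E replicate 1 (0.0838) or 2 (0.118). A second probe set of the gene was at background in all groups.

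Sncg encodes γ-synuclein, a small protein of neurons, fat and some tumours. Its values were 4.89, 4.68 and 4.19 with Compound E, 4.64, 4.20 and 4.85 on OP9-DL1 and 6.10, 6.22 and 6.26 on OP9-GFP. The first 2 groups covered the same range, and their difference was 0.02 (95% interval -0.38 to 0.42, limma adjusted p = 0.943). Cav1, the caveolin that coats plasma membrane pits, read 5.14, 4.95 and 4.68 with Compound E, 4.98, 5.24 and 5.14 on OP9-DL1 and 6.07, 6.25 and 6.35 on OP9-GFP. Here too the ligand feeder arrays formed 1 range below the controls, with a Compound E minus OP9-DL1 difference of -0.20 (-0.50 to 0.11). Its partner Cav2, measured beside it, stood at 9.76 with Compound E, 7.77 on OP9-DL1 and 9.66 on OP9-GFP, so that its mean with Compound E was 0.10 above that on OP9-GFP (limma adjusted p = 0.438). Cavin1 and Cavin2, coat proteins of caveolae, were 0.90 and 1.81 higher on OP9-DL1 than on OP9-GFP, and with Compound E -0.15 (adjusted p = 0.216) and -0.88 from OP9-GFP.

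Anxa8 is an annexin gene, whose products bind membrane phospholipids in the presence of calcium. It had 4.15, 4.19 and 4.44 with Compound E, 4.33, 4.12 and 4.17 on OP9-DL1 and 5.998, 5.47 and 5.31 on OP9-GFP. The brighter annexin genes Anxa1, Anxa2, Anxa3 and Anxa5 had Compound E minus OP9-GFP differences of 0.17, 0.13, -0.34 and 0.15. Insyn2a, an inhibitory synapse gene, read 6.34, 6.54 and 6.95 with Compound E, 6.74, 6.76 and 6.79 on OP9-DL1 and 8.20, 7.78 and 8.12 on OP9-GFP. Its next brightest probe set had 5.70, 5.96 and 5.72 in the same order of groups and showed no such difference. Hdac9 encodes a class IIa histone deacetylase that binds MEF2 factors. Its levels were 4.48, 4.18 and 4.30 with Compound E, 4.44, 3.99 and 4.19 on OP9-DL1 and 5.78, 5.61 and 5.57 on OP9-GFP. For the relative Hdac4 the difference to OP9-GFP was -0.14 with Compound E (limma adjusted p = 0.194) and -0.64 on OP9-DL1, and for Hdac7 it was 0.16 (0.251) and 0.69. Hdac5 was higher with Compound E than on OP9-GFP by 0.53 (0.00732), and the partner gene Mef2c differed by -0.41 (1.37e-05).

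Tmem117, a transmembrane protein gene, read 5.23, 4.02 and 5.25 with Compound E, 4.82, 4.39 and 4.12 on OP9-DL1 and 6.79, 5.97 and 5.91 on OP9-GFP. The second Compound E array was far below the other two, and the difference to OP9-DL1 was 0.39 (-0.24 to 1.02); without that array it was 0.80 (limma adjusted p = 0.0161). Pdgfc, a growth factor that acts through the PDGF receptor α, had 6.54, 6.43 and 6.96 with Compound E, 6.34, 6.59 and 6.49 on OP9-DL1 and 7.32, 7.63 and 7.58 on OP9-GFP. Groups on the ligand feeder overlapped again, with a difference of 0.17 (-0.12 to 0.47). A second Pdgfc probe set read 5.61, 5.54 and 6.48 in the same order of groups. In contrast to the ligand, the receptor gene Pdgfra was higher than on OP9-GFP, by 0.67 with Compound E and 1.53 on OP9-DL1, and Pdgfrb by 0.04 (adjusted p = 0.793) and 1.66. Shroom2, an actin-binding gene, was the last of the 8 that did not pass between Compound E and OP9-DL1, at 4.82 ± 0.30 with Compound E, 4.41 ± 0.36 on OP9-DL1 and 5.71 ± 0.21 on OP9-GFP (SD, n = 3 each; limma adjusted p = 0.0906). For these 8 the interval of the difference reached at most 1.02 above 0, so a missed threshold does not show equal levels.

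**Figure D3:**
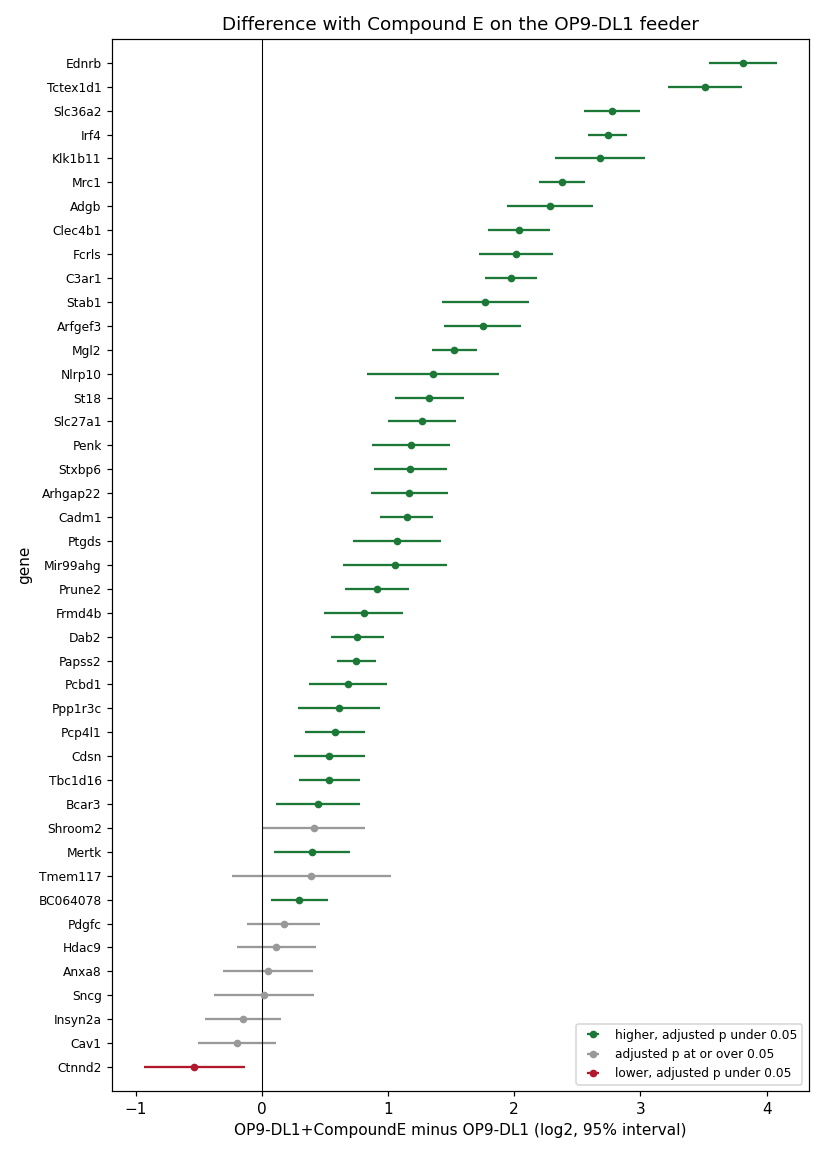
The difference OP9-DL1+CompoundE minus OP9-DL1 (horizontal, log2) of each of the 43 genes, with its 95% interval from limma over 3 arrays in each group. Ednrb and Tctex1d1 lie above 3.5, 34 genes in green are higher at a limma adjusted p under 0.05, 8 in grey did not pass, and Ctnnd2 at the foot is lower.

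Among the surface receptors and adhesion molecules, all 9 were higher with Compound E than on OP9-DL1 by limma (25.1% of all genes were) and all remained under OP9-GFP, by the rule. In this and the other role groups, the choice of genes low on OP9-DL1 favours such counts. The roles were assigned after values were seen, and no test compared them. The share of the OP9-DL1 difference still present in these 9 ran from 15.1% to 71.8%. Mrc1, the mannose receptor CD206 that macrophages use to take up glycoproteins, read 8.34, 8.54 and 8.59 with Compound E, 6.01, 6.17 and 6.16 on OP9-DL1 and 9.68, 9.66 and 9.76 on OP9-GFP. The 3 groups formed 3 separate levels, with Compound E 2.38 ± 0.08 (SE) above OP9-DL1 (limma adjusted p = 1.09e-12) and 2.31-fold below OP9-GFP. Mgl2, a galactose-binding lectin of macrophages and dendritic cells, had 8.27, 8.39 and 8.40 with Compound E, 6.97, 6.84 and 6.67 on OP9-DL1 and 9.22, 9.28 and 9.25 on OP9-GFP. Its close relative Clec10a stood at 10.36, 7.23 and 10.55 in the same order, a Compound E minus OP9-GFP difference of -0.19 (limma adjusted p = 0.0526) and an OP9-DL1 minus OP9-GFP difference of -3.32; the probes of such similar genes may read each other. Clec4b1, a C-type lectin of the Dectin-2 gene cluster, read 6.77, 6.60 and 6.70 with Compound E, 4.59, 4.69 and 4.68 on OP9-DL1 and 7.69, 7.44 and 7.46 on OP9-GFP. Its cluster neighbours Clec4a2, Clec4a3 and Clec4e were 0.40, 0.66 and 0.63 higher with Compound E than on OP9-GFP, and Clec4d (0.10) and Clec4n (-0.07) were not called, whereas on OP9-DL1 the differences of all 5 to OP9-GFP ran from -2.11 to -1.01.

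**Figure D4:**
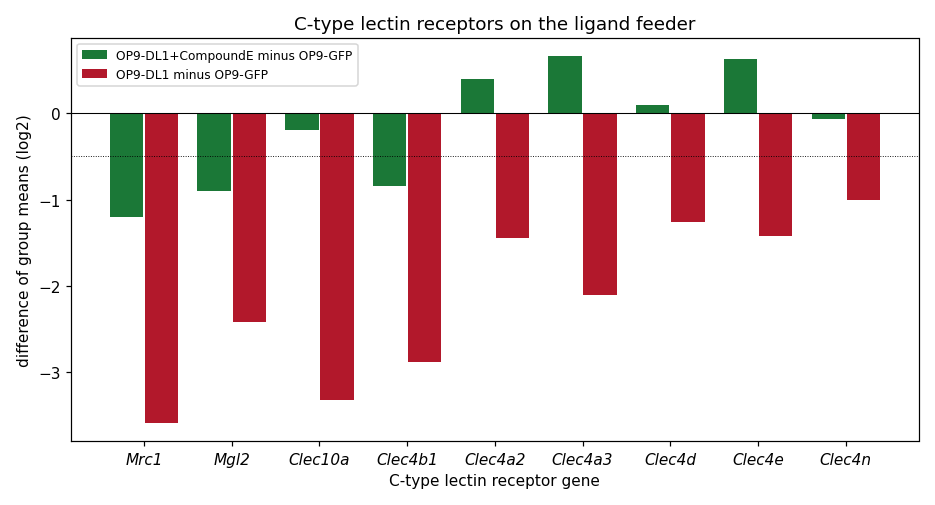
Bars give the difference of group means (log2, vertical) for 9 C-type lectin receptor genes, green for OP9-DL1+CompoundE minus OP9-GFP and red for OP9-DL1 minus OP9-GFP. All red bars point down, while the green bars of Mrc1, Mgl2 and Clec4b1, the described genes, pass the dotted line at -0.5 and those of Clec4a2, Clec4a3 and Clec4e point up by 0.40 to 0.66.

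Among 23 measured lectin and immunoglobulin-like receptor genes, 14 were higher and 2 lower with Compound E than on OP9-GFP (12.1% and 10.6% of all genes). The 2 were Clec4b1 and Mgl2, lower by the rule. On OP9-DL1 20 of the 23 were lower (16.7% of all genes). The median of that list was 0.39 with Compound E and -1.16 on OP9-DL1 relative to OP9-GFP, against 0.05 and -0.02 over all genes. Of 25 macrophage and monocyte genes, 9 were higher and 4 lower with Compound E than on OP9-GFP (12.1% and 10.6% of all genes). On OP9-DL1 20 of them were lower (16.7% of all genes). The 4 were Mrc1 and Mertk, lower by the rule, and Cd163 and Maf. The summed linear level of the macrophage list ran from 46184 to 49359 with Compound E, from 20991 to 21690 on OP9-DL1 and from 42328 to 44795 on OP9-GFP. The median of the macrophage list was 0.09 with Compound E relative to OP9-GFP. Single genes went both ways: Csf1r, Adgre1 and Cd68 differed by 0.23, 0.64 and 0.34, and Cd163 and Maf by -1.68 and -0.20. By its median and sum the list was not lower with Compound E than on OP9-GFP, while Mrc1 and Mertk were, by the rule.

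Mertk, a receptor kinase for the uptake of dying cells, stood at 5.49 ± 0.14 with Compound E, 5.09 ± 0.20 on OP9-DL1 and 6.51 ± 0.16 on OP9-GFP (SD, n = 3 each). Its difference to OP9-DL1 passed narrowly (0.40, limma adjusted p = 0.0297) and was lost without OP9-DL1 replicate 1 (0.143), OP9-DL1 replicate 3 (0.0535) or Compound E replicate 1 (0.109). Its relative Axl differed from OP9-GFP by -0.26 with Compound E (limma adjusted p = 0.162), while the ligand gene Gas6 was higher than on OP9-GFP by 0.73 with Compound E and 1.26 on OP9-DL1. C3ar1, the receptor of the complement fragment C3a, read 7.60, 7.45 and 7.45 with Compound E, 5.54, 5.39 and 5.65 on OP9-DL1 and 8.57, 8.64 and 8.62 on OP9-GFP. Each group formed its own level, and 2 further probe sets of C3ar1 gave Compound E minus OP9-GFP differences of -1.14 and -1.04. C5ar1, the receptor of the sister fragment C5a, had differences to OP9-GFP of 0.49 with Compound E and -1.94 on OP9-DL1.

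Stab1, a scavenger receptor of tissue macrophages and sinusoidal endothelium, had 6.41 ± 0.24 with Compound E, 4.64 ± 0.34 on OP9-DL1 and 7.003 ± 0.06 on OP9-GFP (SD, n = 3 each). Fcrls, an Fc receptor-like scavenger molecule known from mouse microglia, read 5.96, 6.23 and 5.96 with Compound E, 4.17, 3.998 and 3.94 on OP9-DL1 and 6.68, 6.36 and 6.70 on OP9-GFP. With the inhibitor 20.9% of its OP9-DL1 difference remained. Cadm1, an immunoglobulin-type adhesion molecule found on cross-presenting dendritic cells and mast cells, gave 8.55, 8.29 and 8.35 with Compound E, 7.27, 7.15 and 7.33 on OP9-DL1 and 9.66, 9.55 and 9.93 on OP9-GFP. Its levels were well separated, and 3 other Cadm1 probe sets showed Compound E minus OP9-GFP differences of -1.32, -1.51 and -0.99. Ednrb, the endothelin B receptor, had 8.41, 8.08 and 8.51 with Compound E, 4.79, 4.36 and 4.42 on OP9-DL1 and 8.98, 9.01 and 9.05 on OP9-GFP, a Compound E minus OP9-DL1 difference of 3.81 ± 0.13 (SE). With the probe sets of Ednrb averaged, that difference was 1.65. Its other 2 probe sets were dim, with Compound E minus OP9-GFP differences of -0.44 and 0.01. Of 16 endothelial genes, 1 was higher and 7 lower with Compound E than on OP9-GFP (12.1% and 10.6% of all genes). On OP9-DL1 9 were higher and 2 lower (15.9% and 16.7% of all genes). Ednrb is among the lower ones in both, by the rule. The summed level was 1103 to 1205 with Compound E, 2767 to 3079 on OP9-DL1 and 1589 to 1622 on OP9-GFP.

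Promoter sequences, 250 bases before to 50 after the annotated start (RefSeq, GRCm38.p6), were listed for 36 of the 43 genes. They were searched on both strands for 6 short motifs. GTGGGAA, bound by RBPJ, stood in 5 of the 36 (13.9%), those of Clec4b1, Dab2, Slc27a1, Stxbp6 and Tctex1d1, against 6.37% of 14452 promoters of measured genes. A form of the site of the myeloid factor PU.1, GAGGAAG, stood in 13.9% against 13.3%. The interferon response core AGTTTC stood in 16.7% against 14.5%. For the AP-1 letters TGACTCA the shares were 5.56% and 4.37%. The E box palindrome CACGTG was found in 5.56% and 9.02%. A site form of the erythroid and mast cell family that includes Gata1, AGATAAG, was found in 4 promoters (11.1%), against 2.32%. A match says only that the letters are there. 5 promoters are printed to show the RBPJ letters in 3 of them, the paired PU.1 letters of Mrc1, and that of Ctnnd2, which held none of the 6; capitals mark the matches, 5′ to 3′ on the gene's strand.
Mrc1, chr2:14229164-14229463, plus strand, PU.1 letters starting at -168 and -36: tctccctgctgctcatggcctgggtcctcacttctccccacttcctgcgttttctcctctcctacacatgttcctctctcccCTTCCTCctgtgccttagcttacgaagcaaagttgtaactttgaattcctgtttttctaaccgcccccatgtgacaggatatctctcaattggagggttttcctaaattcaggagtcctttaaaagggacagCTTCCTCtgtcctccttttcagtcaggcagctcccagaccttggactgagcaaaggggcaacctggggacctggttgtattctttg
Clec4b1, chr6:123049712-123050011, plus strand, interferon core letters at -150 and RBPJ letters at -61: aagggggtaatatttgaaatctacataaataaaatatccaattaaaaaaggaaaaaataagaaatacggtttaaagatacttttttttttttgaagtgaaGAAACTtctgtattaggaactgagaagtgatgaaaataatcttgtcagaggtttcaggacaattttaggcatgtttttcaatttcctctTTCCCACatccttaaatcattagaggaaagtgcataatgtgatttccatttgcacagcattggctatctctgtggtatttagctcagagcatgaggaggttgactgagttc
Dab2, chr15:6299539-6299838, plus strand, RBPJ letters at -224 and GATA letters at 14: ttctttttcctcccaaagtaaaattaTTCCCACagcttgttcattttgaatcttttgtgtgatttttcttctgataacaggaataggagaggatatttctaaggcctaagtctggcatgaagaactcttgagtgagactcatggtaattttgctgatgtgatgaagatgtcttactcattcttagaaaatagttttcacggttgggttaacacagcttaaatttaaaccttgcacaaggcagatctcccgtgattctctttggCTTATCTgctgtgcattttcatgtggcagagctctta
Tctex1d1, chr4:102978453-102978752, plus strand, RBPJ letters at -225: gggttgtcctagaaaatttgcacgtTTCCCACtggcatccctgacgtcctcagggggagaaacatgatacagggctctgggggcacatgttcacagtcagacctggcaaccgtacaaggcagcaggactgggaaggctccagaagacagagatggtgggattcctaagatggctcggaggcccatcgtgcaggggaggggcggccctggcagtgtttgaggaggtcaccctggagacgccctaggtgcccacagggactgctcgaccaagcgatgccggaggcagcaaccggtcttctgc
Ctnnd2, chr15:30172284-30172583, plus strand: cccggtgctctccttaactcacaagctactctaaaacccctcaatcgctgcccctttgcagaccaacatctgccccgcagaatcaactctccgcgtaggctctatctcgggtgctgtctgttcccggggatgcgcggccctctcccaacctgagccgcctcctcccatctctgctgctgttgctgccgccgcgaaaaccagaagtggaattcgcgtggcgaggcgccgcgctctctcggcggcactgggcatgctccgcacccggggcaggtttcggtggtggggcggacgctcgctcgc
The median GC content was 57.5% in the 36 promoters and 58.7% in all 14452, with a median of 10 and 17 CpG dinucleotides.

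Of the 5 regulators, 4 were higher with Compound E than on OP9-DL1 (25.1% of all genes were) and Hdac9 did not pass. Irf4, a transcription factor, drives dendritic cell, alternatively activated macrophage and lymphoid programmes. Irf4 read 9.56, 9.54 and 9.65 with Compound E, 6.77, 6.77 and 6.98 on OP9-DL1 and 10.35, 10.44 and 10.32 on OP9-GFP, where OP9-DL1 replicates 1 and 2 were identical. With Compound E it was 2.74 ± 0.07 (SE) above OP9-DL1 and 1.73-fold below OP9-GFP. A second Irf4 probe set was at background in all groups, and with both averaged the difference to OP9-DL1 was 1.49. Irf8 differed from OP9-GFP by -0.28 with Compound E and -1.52 on OP9-DL1, and Spi1, which encodes the partner PU.1, by 0.46 and -0.92. Of 20 dendritic cell genes 8 were lower and 1 higher with Compound E than on OP9-GFP (10.6% and 12.1% of all genes); besides Irf4 and Irf8 the lower ones were Flt3, Siglech, Klrd1, H2-Aa, H2-Ab1 and H2-Eb1. On OP9-DL1 9 of the 20 were lower and 4 higher (16.7% and 15.9% of all genes). Irf4 is among the lower ones in both, by the rule. Irf8, Flt3, Siglech and Klrd1 were also lower on OP9-DL1 than on OP9-GFP. In contrast, H2-Aa and H2-Eb1 were higher there, by 0.21 and 0.49, and H2-Ab1 was not called (0.07).

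A list of 21 genes tied to alternative macrophage activation, written after the values were seen, held 4 of the 43 genes, Mrc1, Mgl2, Irf4 and Stab1. With Compound E 6 of the list were lower and 2 higher than on OP9-GFP (10.6% and 12.1% of all genes). On OP9-DL1 11 were lower and 5 higher (16.7% and 15.9% of all genes). The 4 are lower in both by the rule, so an excess of lower genes over those shares is partly fixed by the choice. Besides the 4, the lower ones with Compound E were Tgm2 and Cd163, and the higher ones Il4ra and Msr1. On OP9-DL1 Tgm2 was higher than on OP9-GFP (0.34) and Cd163 was not called (-0.24), while Il4ra (-0.997) and Msr1 (-3.50) were lower. St18, a zinc finger repressor gene, stood at 5.70 ± 0.07 with Compound E, 4.37 ± 0.18 on OP9-DL1 and 6.32 ± 0.03 on OP9-GFP. Pcbd1, a cofactor of the factor HNF1 and an enzyme of pterin recycling, read 4.65, 4.83 and 4.62 with Compound E, 4.12, 3.97 and 3.96 on OP9-DL1 and 5.50, 5.12 and 5.03 on OP9-GFP, and its relative Pcbd2 stayed within 0.07 across groups. Mir99ahg, a long non-coding RNA gene named as host of Mir99a, gave 5.13 ± 0.32 with Compound E, 4.07 ± 0.40 on OP9-DL1 and 5.73 ± 0.11 on OP9-GFP (SD, n = 3 for each value); the array reads the host RNA and not the microRNA.

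Of 15 junction, cytoskeleton and membrane traffic genes, 9 were higher with Compound E than on OP9-DL1, 1 was lower and 5 did not pass (25.1% of all genes were higher and 21.6% lower). Tctex1d1, a gene of the Tctex1 dynein light chain family, read 7.40, 7.29 and 7.33 with Compound E, 4.07, 3.49 and 3.92 on OP9-DL1 and 7.99, 7.84 and 7.81 on OP9-GFP. With the inhibitor 13.4% of the OP9-DL1 difference was left. Arfgef3, an Arf exchange factor family gene, read 6.08, 5.75 and 6.05 with Compound E, 4.28, 4.003 and 4.34 on OP9-DL1 and 6.64, 6.70 and 6.95 on OP9-GFP, and another of its probe sets had a Compound E minus OP9-GFP difference of -0.87. Dab2, a clathrin adaptor for receptor uptake, stood at 7.78 ± 0.08 with Compound E, 7.03 ± 0.15 on OP9-DL1 and 8.36 ± 0.13 on OP9-GFP. Here 2 other probe sets showed larger differences than the one that represents the gene, -1.05 and -0.98 with Compound E and -2.998 and -2.97 on OP9-DL1. Lrp1, an endocytic receptor that Dab2 binds, differed from OP9-GFP by 0.38 with Compound E and -1.76 on OP9-DL1.

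Stxbp6, a SNARE-binding protein gene, had 5.09 ± 0.12 with Compound E, 3.91 ± 0.07 on OP9-DL1 and 6.10 ± 0.18 on OP9-GFP, and Arhgap22 had 5.35 ± 0.15 with Compound E, 4.18 ± 0.20 on OP9-DL1 and 5.94 ± 0.12 on OP9-GFP. The related Arhgap24 and Arhgap25 lay above OP9-GFP with Compound E, by 0.78 and 0.57. Smaller differences were seen for Frmd4b, a FERM domain scaffold gene, at 7.55 ± 0.25 with Compound E, 6.74 ± 0.27 on OP9-DL1 and 8.12 ± 0.19 on OP9-GFP. Of its 3 other probe sets above background, 2 nearly as bright as the first lay -0.09 and 0.09 from OP9-GFP with Compound E. Tbc1d16, a Rab GTPase activator gene, read 6.01, 6.07 and 5.90 with Compound E, 5.48, 5.41 and 5.49 on OP9-DL1 and 6.69, 6.51 and 6.59 on OP9-GFP. Bcar3, an adaptor of the focal adhesion protein Bcar1, gave 4.86 ± 0.29 with Compound E, 4.41 ± 0.15 on OP9-DL1 and 5.56 ± 0.13 on OP9-GFP, with overlapping Compound E and OP9-DL1 arrays. Cdsn, which holds skin corneocytes together, gave 5.54 ± 0.09 with Compound E, 5.003 ± 0.18 on OP9-DL1 and 6.34 ± 0.11 on OP9-GFP (SD, n = 3 for each value in this group).

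The secreted proteins, enzymes and transporters included 2 genes with very low OP9-DL1 values. Klk1b11, a tissue kallikrein protease gene, read 5.87, 6.04 and 5.70 with Compound E, 3.18, 3.55 and 2.83 on OP9-DL1 and 7.31, 7.48 and 7.24 on OP9-GFP. All OP9-DL1 values were at background, so the OP9-DL1 difference may be understated. Kallikrein genes are near-identical copies, but the 7 other Klk1b genes measured had means from 2.43 to 3.72 in every group, and Klk1 had 6.11, 6.01 and 5.75. Slc36a2, a proton-coupled amino acid transporter, read 7.07, 7.07 and 7.07 with Compound E, 4.39, 4.33 and 4.19 on OP9-DL1 and 7.96, 7.91 and 7.87 on OP9-GFP. Compound E replicates 2 and 3 were identical to every digit deposited. Its relatives Slc36a1 and Slc36a4 stood 0.01 (adjusted p = 0.929) and 0.21 above OP9-GFP with Compound E.

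Ptgds, the lipocalin-type prostaglandin D synthase, had 5.09, 5.12 and 4.63 with Compound E, 3.94, 3.73 and 3.94 on OP9-DL1 and 6.27, 5.96 and 6.43 on OP9-GFP. The blood cell enzyme for the same product, Hpgds, differed from OP9-GFP by -0.21 with Compound E (limma adjusted p = 0.141) and -1.06 on OP9-DL1. Slc27a1, a fatty acid uptake protein, stood at 7.96 ± 0.09 with Compound E, 6.70 ± 0.33 on OP9-DL1 and 8.74 ± 0.05 on OP9-GFP, and its second probe set had a Compound E minus OP9-GFP difference of -0.049. Papss2, which makes the sulphate donor PAPS, had 9.53 ± 0.14 with Compound E, 8.78 ± 0.11 on OP9-DL1 and 10.09 ± 0.03 on OP9-GFP. Its sister Papss1 stayed within 0.07 across groups. Penk, the precursor of the enkephalin peptides, reached 4.55 ± 0.08 with Compound E, 3.37 ± 0.14 on OP9-DL1, which is at background, and 5.17 ± 0.25 on OP9-GFP. Ppp1r3c, which brings protein phosphatase 1 to glycogen, had 4.46 ± 0.11 with Compound E, 3.85 ± 0.11 on OP9-DL1 and 5.06 ± 0.29 on OP9-GFP (SD, n = 3 for each value).

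The last 6 genes fit none of these roles, and Tmem117 is described above. Adgb, the globin-like protein androglobin, read 5.91, 5.59 and 5.83 with Compound E, 3.55, 3.15 and 3.78 on OP9-DL1 and 7.13, 7.15 and 7.39 on OP9-GFP. The OP9-DL1 mean lay at background, and the 3 groups formed separate levels. Nlrp10, a member of the NLR family of innate sensors, had 5.74 ± 0.56 with Compound E, 4.38 ± 0.47 on OP9-DL1 and 6.53 ± 0.16 on OP9-GFP, a wide spread on the ligand feeder. Nlrp3 and its adaptor Pycard had differences to OP9-GFP of 0.18 and 0.041 with Compound E, which did not pass, and of -1.04 and -1.003 on OP9-DL1. Pcp4l1 had 6.21 ± 0.03 with Compound E, 5.63 ± 0.05 on OP9-DL1 and 7.12 ± 0.15 on OP9-GFP (SD, n = 3 each). Prune2 read 6.66, 6.96 and 7.12 with Compound E, 6.02, 5.92 and 6.06 on OP9-DL1 and 7.497, 7.34 and 7.44 on OP9-GFP. BC064078 read 6.79, 6.71 and 6.82 with Compound E, 6.46, 6.40 and 6.55 on OP9-DL1 and 7.42, 7.48 and 7.74 on OP9-GFP. In both genes the 3 groups formed separate levels.

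None of 31 stromal and matrix genes was among the 43. With Compound E 7 were higher and 5 lower than on OP9-GFP (12.1% and 10.6% of all genes). On OP9-DL1 21 were higher and 0 lower (15.9% and 16.7% of all genes). The summed level of that list ran from 25154 to 26409 with Compound E, from 36987 to 37276 on OP9-DL1 and from 25812 to 26112 on OP9-GFP. The adipocyte list had 6 higher and 4 lower of 19 with Compound E (12.1% and 10.6% of all genes). Its sums were 12758 to 12853, 13158 to 13537 and 12396 to 12837 in the same order. Contractile genes had 1 higher and 8 lower of 14 with Compound E (12.1% and 10.6% of all genes). On OP9-DL1 8 of the 14 were higher and 1 lower (15.9% and 16.7% of all genes). Their sums were 8270 to 8627, 16818 to 17542 and 9362 to 9908. The lists of neutrophil, eosinophil and basophil, mast cell, B lymphoid, T and NK lymphoid, erythroid, megakaryocyte and interferon response genes held none of the 43. For the B lymphoid list this rests on the choice, as its gene Il7r met the conditions and was left out by name. The part of cell composition and of feeder RNA in the 43 differences was not tested.

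Other probe sets of the same genes gave a view that the choice did not use directly, although they read the same RNA. Of the 43 genes 24 had other probe sets, 38 in all, and 27 of these, for 17 genes, were above background in some group. Both differences to OP9-GFP were below 0 for 23 of the 27, and 12, for 8 genes, met both limits of the rule: Arfgef3, BC064078, C3ar1, Cadm1, Dab2, Mir99ahg, Papss2 and Prune2. The 9 genes for which none did were Anxa8, Ednrb, Frmd4b, Insyn2a, Pdgfc, Ptgds, Shroom2, Slc27a1 and Stxbp6. With the probe sets of a gene averaged, 9 of the 24 genes that have several still met the rule and 15 did not. The other 19 have 1 probe set and cannot change. An average with a probe set at background is lower and differs less by construction. Among the 15 this applies to Irf4, Hdac9, Bcar3, St18, Ppp1r3c and Tbc1d16, whose other probe set was at background in all groups. It applies in part to Frmd4b, Insyn2a and Prune2, which had probe sets at background beside others above it. Papss2 and Prune2 are also among the 15, although another probe set of each met both limits. The differences of Insyn2a and Shroom2 were seen with 1 probe set only. The other Shroom2 probe set read 3.96 with Compound E, 3.72 on OP9-DL1 and 3.72 on OP9-GFP. These levels lie just above the background of 3.64, so it could hardly show a fall.

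**Figure D5:**
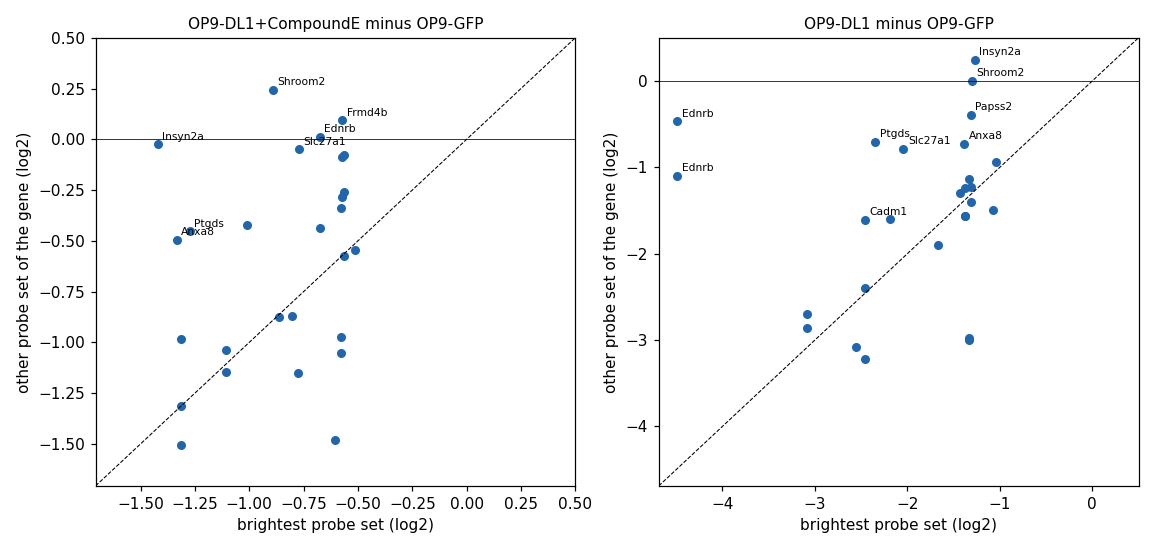
Differences to OP9-GFP (log2) of 27 other probe sets (vertical) against the brightest probe set of the same gene (horizontal), for OP9-DL1+CompoundE on the left and OP9-DL1 on the right. Points on the dashed line have equal differences; named points lie over 0.65 above it, among them Insyn2a and Shroom2 in both panels.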

How the data were processed

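RNA from non-adherent cells (25 ng, amplified, per the labels' protocols) was measured on 9 arrays, 3 in each of 3 groups taken from the sample labels. The deposited values are the authors' normalized log2 expression values for 45101 probe sets. The submitters' processing notes name MAS5 and GCRMA 2.4.1, with no role given for either, and which of them gave these values is not stated. Array data have no read depth, and 3 arrays a group limit the precision.

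Of the probe sets 34945 had 1 gene symbol, 932 several and 9160 none, and 64 were array controls; 34741 probe sets were matched to current symbols through the Entrez identifier. For each of 18193 genes the brightest probe set (mean over all arrays) was used. A linear model over all 9 arrays was fitted with limma 3.58.1 in R 4.3.3 (moderated variances with an intensity trend, Benjamini-Hochberg adjustment over all genes, threshold 0.05), after a test on simulated data. Named are all 43 genes, the clone-like symbol BC064078 included because it lies next to a limit, and values of every array are given for genes with the 12 lowest differences to OP9-GFP in either contrast or the 8 highest or lowest between Compound E and OP9-DL1, and for members next to a limit. Mgl2 was added to these after its values were seen, and genes just outside a limit are given by their difference. The genes and gene lists were chosen with earlier results of these data known, and the alternative activation list, the related genes and the role groups were written after values were seen. Alternatives were an offset of 32 on the linear scale, quantile or median scaling, filters, averaged probe sets, other thresholds, each array left out, and a replicate block. Same-numbered arrays of different groups had correlations of their deviations from -0.115 to 0.119, so the numbers were not taken to pair them.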

Additional observations from a re-analysis of the deposited data

How the results depend on the processing

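The 43 genes became 20 with log2 of the linear value plus 32, 15 with both limits at -1 and 79 with both at -0.5, and 39 to 45 when 1 array was left out. The count higher with Compound E than on OP9-DL1 (34) was 31 to 34 with an array left out and 28 to 35 under the other alternatives. The count lower (1, Ctnnd2) was 0 with the offset of 32, quantile normalization, averaged probe sets or no intensity trend. The filter to genes without equal values in a group, chosen after seeing the data, removes 7 of the 43 genes, Ctnnd2 among them. Its count lower of 0 was thus fixed in advance, and its count higher rests on fewer genes. With an array left out the count lower was 0 to 2. Without Compound E replicate 3 the second was Insyn2a (-0.32, limma adjusted p = 0.0481). The median Compound E minus OP9-GFP difference (-0.80) was -0.64 with the offset, and -0.85 to -0.80 with an array left out. The median Compound E minus OP9-DL1 difference (1.06) was 0.54 with the offset, 0.84 with averaged probe sets and 0.86 without genes holding equal values, and 0.93 to 1.09 with an array left out. The offset shrinks differences of dim genes by construction, as does averaging with a probe set at background. The value of 0.86 is the median of the genes left after the filter on equal values. Otherwise the cause of these shifts was not tested. With the replicate number as a block, 34 genes were higher and 1 lower, and no such call changed in number. Sncg changed sign to -0.16 without OP9-DL1 replicate 2, -0.13 without Compound E replicate 1 and -0.03 without Compound E replicate 2, and Anxa8 to -0.039 without Compound E replicate 3; with an array left out Sncg ranged from -0.16 to 0.22 and Anxa8 from -0.039 to 0.11. Of 767 values of single genes under an alternative, 736 kept their direction and side of the threshold, 21 lost the call, 6 gained it and 4 changed sign, in 9 genes. Signal near background limits Klk1b11, Adgb and Penk on OP9-DL1.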
